A study of Homo sapiens with 3 samples.

Results

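The replication-dependent histone genes supply the histones that package newly copied DNA. They were taken here as the protein-coding genes whose symbol begins with HIST1H, HIST2H, HIST3H or HIST4H, which gave 71 of the 58735 genes measured. These 71 genes comprised 6 of the linker histone class H1, 17 of H2A, 18 of H2B, 15 of H3 and 15 of H4. Reads were found in 46 of them, and 17 had a mean FPKM (fragments per gene, divided by the length of the gene and a size set for the library) over the 3 libraries of at least 1. These were 64.8% and 23.9% of the members, against 79.8% and 52.0% of 19951 protein-coding genes.

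RNA sequencing was performed on 3 cultures labelled HCT116, a line established from a human colorectal carcinoma and grown in DMEM with fetal bovine serum. One culture carried an empty vector, another overexpressed wild-type ZEB1, and the last overexpressed ZEB1 K80R, an arginine-for-lysine form. ZEB1 is a DNA-binding repressor of epithelial genes and a driver of epithelial-mesenchymal transition. Each group was 1 library, and whether a line was a clone or a pool, and which promoter drove ZEB1, was not given in the sources used here. Values of a gene are listed below in the order empty vector, wild-type ZEB1, ZEB1 K80R.

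With 1 library per group, no difference could be set against the spread between cultures, and no p-value is given. The deposited FPKM resolved into whole reads, which summed to 14764535, 14322537 and 13479517 per library. Brackets after a ratio of FPKM hold its 95% interval from these reads, exact for single genes and approximate for sums, and cover counting error only. Where a library had 0 reads, only the limit of this interval is given. ZEB1 was measured at 5.66, 9.83 and 10.3 FPKM, higher in both overexpression libraries. The colon label was checked against 13 colon epithelial markers, of which 10, EPCAM, CDH1 and VIL1 among them, had no read in any library and none exceeded 0.279 FPKM, so the data went against a colon epithelial identity, and HCT116 stands here only as the name on the labels. Of 12 markers of other cells, 3 had a mean of at least 1, and they differed between the libraries. The axonal filament gene NEFL stood at 0.626 and 0.695 of empty vector in wild type and K80R, and the collagen gene COL1A1 at 0.548 and 0.401. The growth factor receptor gene PDGFRB stood at 3.83 (2.89 to 5.13) and 2.68 (1.99 to 3.65). The empty vector library stood apart in its low counts, with 350 genes holding a single read against 2705 and 2902 in the others, and in its share of mitochondrially encoded reads, 1.29% against 7.77% and 9.75%. The part of these library and marker differences in the values below was not tested.

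In each nucleosome DNA is wrapped around an octamer of the core histones H2A, H2B, H3 and H4, while H1 binds the DNA between nucleosomes. Metazoan replication-dependent histone genes lie in clusters, are mostly free of introns and are transcribed mainly in S phase. Their mRNAs usually end in a conserved stem-loop bound by SLBP in place of a poly(A) tail, although some of these genes can also give polyadenylated mRNA. Whether the mRNA kit used here selected poly(A) RNA was not given in the sources used here, so a level below is the level of histone mRNA that this library type captured. In bulk RNA, fewer cells in S phase and less histone mRNA per cell cannot be told apart.

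The stem-loop is shown first because the members are grouped by it below. In GENCODE 29 transcripts, 32 of the 71 members held a match, in 6 versions, printed as DNA with the paired stem in capitals and the 4-base loop in lower case. The commonest version was found in 17 members, among them HIST1H2AC, HIST3H2A and HIST1H3H. HIST1H2BD and HIST1H2BC shared a version that differed in the loop, and HIST1H4I carried another.
HIST1H2AC: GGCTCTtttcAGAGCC
HIST1H2BD: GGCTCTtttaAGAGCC
HIST1H4I: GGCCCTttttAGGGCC
HIST1H4H: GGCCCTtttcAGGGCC
HIST1H2AG: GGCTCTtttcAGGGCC

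The 150 bases upstream of the RefSeq start are shown for the most abundant member of each class, to set the 5 classes side by side (RefSeq, GRCh38.p14, 5′ to 3′ along the gene). Capitals mark every match, on either strand, of TATAAA (the TATA box), CCAAT, the octamer ATTTGCAT that POU2F1 binds, and the E-box CACCTG that ZEB1 binds. No match of CACCTG fell in these 5 windows, which says only that these letters are not there. The window of HIST1H4I lies inside the longer gene model of the deposited table.
HIST1H1C (chr6:26056471-26056620, minus strand): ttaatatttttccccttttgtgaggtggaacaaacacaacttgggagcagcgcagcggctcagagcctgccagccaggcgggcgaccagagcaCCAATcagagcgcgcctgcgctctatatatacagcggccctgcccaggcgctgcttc
HIST1H2AC (chr6:26124022-26124171, plus strand): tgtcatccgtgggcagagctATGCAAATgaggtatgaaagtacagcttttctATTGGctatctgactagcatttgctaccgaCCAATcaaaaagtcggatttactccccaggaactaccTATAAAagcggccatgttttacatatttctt
HIST1H2BK (chr6:27146859-27147008, minus strand): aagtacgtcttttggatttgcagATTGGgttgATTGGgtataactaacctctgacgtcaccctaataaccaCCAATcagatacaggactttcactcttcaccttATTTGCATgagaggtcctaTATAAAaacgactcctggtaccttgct
HIST1H3H (chr6:27809901-27810050, plus strand): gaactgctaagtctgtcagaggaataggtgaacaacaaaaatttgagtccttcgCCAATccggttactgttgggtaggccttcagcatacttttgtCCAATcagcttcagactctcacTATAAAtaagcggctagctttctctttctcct
HIST1H4I (chr6:27139132-27139281, plus strand): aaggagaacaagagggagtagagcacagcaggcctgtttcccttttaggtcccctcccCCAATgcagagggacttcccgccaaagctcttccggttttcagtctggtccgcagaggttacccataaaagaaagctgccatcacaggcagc

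Promoter windows, from 250 bases before to 50 after the start, were found for 61 of the 71 members. TATAAA was present in 40 of them (65.6%) against 12.0% of 27305 RefSeq promoters of the same length, and CCAAT in 51 (83.6%) against 35.7%. The CCAAT match set H4 apart by count, with 3 of 13 H4 promoters against all 6 of H1, 14 of H2A, 18 of H2B and 10 of H3 that were found. The octamer occurred in 26 promoters (42.6%) against 1.80% of all promoters, in 11 of 14 H2A and 14 of 18 H2B promoters, in 1 of 10 H3 promoters and in none of the 6 H1 or 13 H4 promoters. The H3 match was in HIST1H3D, whose window is the same stretch as that of HIST1H2AD. Windows of neighbouring H2A and H2B genes can also overlap, as for HIST2H2AC and HIST2H2BE. These counts are thus of genes with a match and not of separate promoters. CACCTG occurred in 3 promoters (4.92%) against 20.6% of all promoters, and HIST1H2BD was the only gene of the 15 matched members with a mean FPKM of at least 1 to hold it. A match is a description of the sequence and not evidence of binding.

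Expression of the family rested on few genes. The members together held 3245, 3441 and 3058 reads and summed to 272, 356 and 328 FPKM, or 0.122%, 0.116% and 0.108% of all FPKM in each library. HIST1H2BK, an H2B gene, and HIST1H1C, which encodes linker histone H1.2, held 66.1%, 68.4% and 70.3% of that sum between them. Shares of FPKM depend on model length, which is 381 bases for HIST1H2BK and 642 for HIST1H1C against 1668 for HIST1H2AC. By reads HIST1H2BK held 674, 878 and 843, HIST1H1C 700, 676 and 551, and HIST1H2AC 633, 418 and 444. The 17 members with a mean of at least 1 held 96.4%, 98.0% and 98.2% of the summed FPKM. At the edge of this filter stood HIST1H2AE at a mean of 1.06 FPKM and HIST1H2AI at 1.05 inside, and HIST1H3B at 0.867 and HIST1H4B at 0.814 outside. By cluster, the large HIST1 cluster on chromosome 6 held 55 members and 87.5%, 90.0% and 91.9% of the histone FPKM. The HIST2 members on chromosome 1 held 2.68%, 4.13% and 3.47%, and the HIST3 cluster on the same chromosome held 9.65%, 5.86% and 4.58%.

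**Figure D1:**
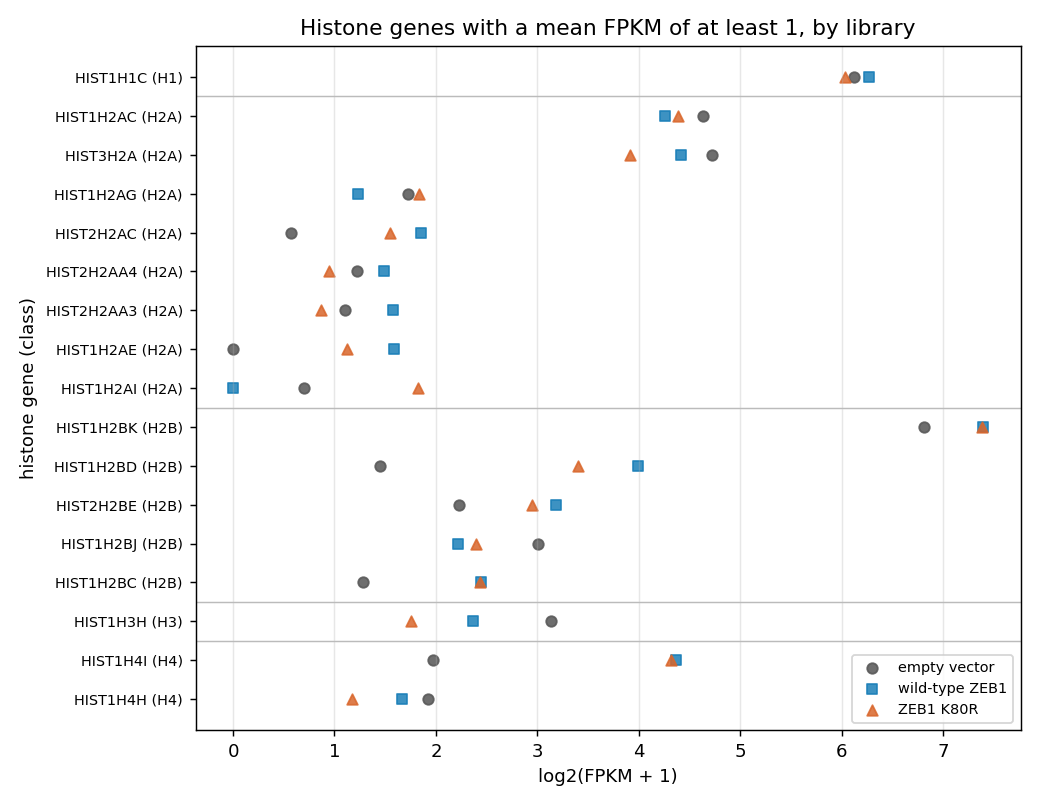
Log2(FPKM + 1) of the 17 histone genes with a mean of at least 1, as a point for each of the 3 libraries. HIST1H2BK (111, 167 and 166 FPKM) and HIST1H1C (68.6, 76.3 and 64.4 FPKM) lie above every other member, and HIST1H4I and HIST1H2BD have their lowest point in the empty vector library.

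H1 was represented by a single gene. HIST1H1C (ENSG00000187837; chromosome 6, 26055787 to 26056428, minus strand) (coordinates are of the whole gene, GRCh38) was measured at 68.6, 76.3 and 64.4 FPKM, from 700, 676 and 551 reads. It was near-level across libraries, with a ratio of 1.11 (0.999 to 1.24) for wild type and 0.939 (0.838 to 1.05) for K80R against empty vector. K80R against wild type gave 0.844 (0.753 to 0.946), the only one of its 3 intervals without 1. HIST1H1E, which encodes H1.4, had 0, 7 and 6 reads. The other 4 H1 genes had no read in any library. HIST1H1C provided 100%, 99.1% and 99.1% of the H1 sum.

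H2A, the partner of H2B in the nucleosome's outer dimers, had 12 of 17 members with reads and 8 with a mean of at least 1. HIST1H2AC (ENSG00000180573; chromosome 6, 26124145 to 26139116, plus strand) was measured at 23.9, 18.2 and 20.0 FPKM, highest with the empty vector. Its ratio to empty vector was 0.760 (0.670 to 0.862) in wild type and 0.836 (0.739 to 0.946) in K80R. HIST3H2A (ENSG00000181218; chromosome 1, 228456979 to 228457873, minus strand) was measured at 25.3, 20.4 and 14.1 FPKM, highest with the empty vector and lowest with K80R. Its ratios to empty vector were 0.806 (0.683 to 0.95) and 0.557 (0.461 to 0.670), and K80R against wild type gave 0.690 (0.565 to 0.843).

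The lower H2A genes did not share this order. HIST1H2AG (chromosome 6, 27133042 to 27135291, plus strand) was lowest in the wild-type library, at 2.29, 1.35 and 2.57 FPKM from 82, 42 and 77 reads, with a ratio of K80R to wild type of 1.90 (1.29 to 2.84). HIST2H2AC (chromosome 1, 149886975 to 149887364, plus strand) had 0.484, 2.60 and 1.92 FPKM, from only 3 reads in the empty vector library, so its ratios of 5.37 and 3.98 carried wide intervals (1.5 to 29.2 and 1.02 to 22.5). HIST1H2AE (chromosome 6, 26216975 to 26217483, plus strand) had 0, 14 and 8 reads, and the lower limits of its ratios to empty vector were 3.82 in wild type and 2.04 in K80R. Both genes were thus at or under 3 reads in the empty vector library. HIST1H2AI, by contrast, was unseen in the wild-type library, with 5, 0 and 17 reads, and the lower limit of its ratio of K80R to wild type was 4.27. Near-identical H2A copies add uncertainty, since 62.3% of the 50-base windows of HIST1H2AI also occur in HIST1H2AJ. HIST2H2AA3 (1.15, 1.98 and 0.820 FPKM) and HIST2H2AA4 (1.34, 1.80 and 0.932 FPKM) are near-identical neighbours with 0% and 2.91% unique windows, so their reads cannot be assigned to either copy.

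H2B held the family's most abundant gene by FPKM. On the deposited scale HIST1H2BK, HIST1H2BD, HIST2H2BE and HIST1H2BC were higher in both ZEB1 libraries than in the empty vector library. HIST1H2BJ was lower in both. HIST1H2BK (ENSG00000197903; chromosome 6, 27146418 to 27146798, minus strand) was measured at 111, 167 and 166 FPKM from 674, 878 and 843 reads. Both ZEB1 libraries lay above the empty vector library, with ratios of 1.5 (1.36 to 1.66) and 1.49 (1.35 to 1.65), and K80R against wild type was 0.994 (0.904 to 1.09). Its identity is limited by sequence: only 25.9% of its 50-base windows were unique, and 61.4% also occur in H2BFS on chromosome 21, which itself had 0, 0 and 2 reads.

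HIST1H2BD, which lies in the same cluster, had the largest ratios to empty vector among the measured H2B genes. HIST1H2BD (ENSG00000158373; chromosome 6, 26158146 to 26171349, plus strand) was measured at 1.73, 14.9 and 9.57 FPKM, from 24, 179 and 111 reads. It was lowest with the empty vector and intermediate with K80R, at ratios of 8.59 (5.59 to 13.8) and 5.52 (3.52 to 8.97) to empty vector, while K80R against wild type was 0.642 (0.502 to 0.818). Its whole span, introns included, overlaps that of the antisense gene AL353759.1, which had 15, 0 and 0 reads, by 10585 bases. The overlap of exons was not computed and the strand setting was not given. Whether reads of these genes were mixed thus cannot be told. HIST2H2BE (chromosome 1, 149884459 to 149886652, minus strand), at 3.67, 8.09 and 6.71 FPKM, was also lowest with the empty vector, at ratios of 2.20 (1.77 to 2.75) and 1.83 (1.45 to 2.30). HIST1H2BC (chromosome 6, 26114873 to 26123926, minus strand), at 1.43, 4.43 and 4.41 FPKM, gave 3.09 (1.79 to 5.54) and 3.08 (1.78 to 5.53). HIST1H2BJ (chromosome 6, 27125897 to 27132750, minus strand) stood the other way, at 7.02, 3.66 and 4.27 FPKM, with ratios of 0.521 (0.363 to 0.740) and 0.608 (0.429 to 0.851).

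H3, which with H4 forms the nucleosome's central tetramer, was low. HIST1H3H (ENSG00000278828; chromosome 6, 27810064 to 27811300, plus strand) was the only H3 member with a mean of at least 1, at 7.79, 4.16 and 2.37 FPKM from 153, 71 and 39 reads. Its values descended from empty vector to wild type to K80R, with ratios to empty vector of 0.534 (0.397 to 0.713) and 0.304 (0.208 to 0.435), and of K80R to wild type of 0.569 (0.375 to 0.852). HIST1H3B followed with 10, 4 and 2 reads, and 7 of the 15 H3 members had no read.

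H4 was carried by HIST1H4I, which held 28.4% of the H4 sum in the empty vector library but 85.4% and 88.9% in the others. HIST1H4I (ENSG00000276180; chromosome 6, 27138588 to 27139881, plus strand) was measured at 2.92, 19.7 and 18.9 FPKM from 60, 351 and 326 reads. The empty vector library lay far below both ZEB1 libraries, with ratios of 6.74 (5.11 to 9.01) and 6.48 (4.91 to 8.68), and K80R against wild type was 0.962 (0.825 to 1.12). In RefSeq, however, all 1294 bases of HIST1H4I lie within the span given to HIST1H2BK (27138293 to 27146858) on the opposite strand, far longer than the deposited model of HIST1H2BK. This overlap is with a whole span, and that with its exons was not computed. Without the strand setting, reads of HIST1H4I may not be separable from those of a long HIST1H2BK transcript. HIST1H4H (chromosome 6, 26277609 to 26285638, minus strand) was highest with the empty vector, at 2.79, 2.18 and 1.25 FPKM, and gave 0.780 (0.560 to 1.08) and 0.447 (0.296 to 0.662).

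Class sums therefore differed in direction, and each was dominated by 1 gene or a few. Summed H2B was 127, 201 and 193 FPKM, a ratio to empty vector of 1.58 (1.44 to 1.72) in wild type and 1.52 (1.39 to 1.66) in K80R, which was 2.11 and 1.73 without HIST1H2BK. Summed H4 was 10.3, 23.0 and 21.3 FPKM, at 2.24 (1.86 to 2.70) and 2.07 (1.71 to 2.49). Without HIST1H4I the H4 sum lay below the empty vector, at 0.458 (0.327 to 0.640) and 0.319 (0.232 to 0.437), so its direction rested on that gene. Summed H2A was 56.7, 48.9 and 44.4 FPKM, at 0.861 (0.778 to 0.953) and 0.783 (0.706 to 0.869). Summed H3 was 9.51, 6.28 and 3.75 FPKM, at 0.660 (0.492 to 0.887) and 0.395 (0.276 to 0.566), and without HIST1H3H these ratios were 1.23 (0.556 to 2.72) and 0.807 (0.336 to 1.94), so the H3 values too rested on 1 gene. Summed H1 was 68.6, 77.0 and 65.0 FPKM, at 1.12 (1.01 to 1.25) and 0.947 (0.848 to 1.06). H2B thus made up 46.7%, 56.4% and 59.0% of histone FPKM, and H2A 20.8%, 13.7% and 13.5%. These shares depend on model length. The HIST1H2BK model has 381 bases and ends at the stop codon, while that of HIST1H2AC has 1668. By reads, H2A held 1115, 772 and 739, and H2B held 1027, 1469 and 1323.

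**Figure D2:**
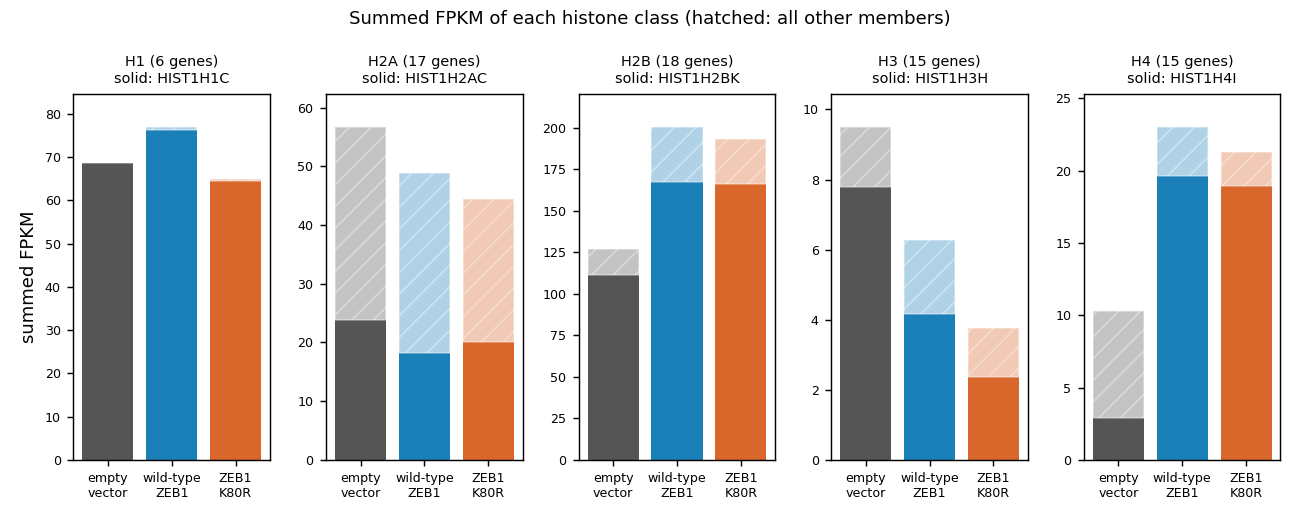
Summed FPKM of the 5 histone classes in the 3 libraries (1 library each), with the solid part of each bar the class's highest member and the hatched part all others. Each class has its own axis from 0. By FPKM, H2B is the largest class in every library (127, 201 and 193 FPKM), and H2A is lower in both ZEB1 libraries than in the empty vector library. By reads, H2A (1115) exceeds H2B (1027) in the empty vector library.

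The count of members past a fold was set beside that over all genes. In wild-type ZEB1 against empty vector, 6 of the 17 measured members had a ratio of FPKM + 1 of at least 1.5 and 3 had the inverse, against 14.2% higher and 11.1% lower among 12605 genes, and 12% and 7.63% among 10372 protein-coding genes. The median member differed by 0.26 on the log2(FPKM + 1) scale, against 0.01 for all genes. In K80R against empty vector, 7 were higher and 4 lower, against 12.6% and 13% of all genes and 9.68% and 10.3% of protein-coding genes. In K80R against wild type, 2 were higher and 3 lower, against 4.42% and 5.18%, or 1.33% and 3.87% of protein-coding genes. The medians of these last comparisons were 0.12 and −0.24. Members such as HIST1H2AE and HIST1H2AI passed the filter through the libraries where they were high, so these counts favour differences. The comparisons against empty vector share that library, and their values stand side by side without being evidence for each other.

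By class, H2B gave 3 higher and 1 lower of 5 in each comparison with empty vector, with HIST1H2BK just short of the fold on the FPKM + 1 scale. H2A gave 2 higher and 1 lower of 8 in wild type, and 3 and 1 in K80R. Of the 2 H4 members, HIST1H4I was higher in both, and HIST1H4H was lower in K80R. HIST1H3H was lower in both and HIST1H1C in neither. By counting interval, 7 of the 17 lay above 1 and 5 below in wild type against empty vector, shares to be read against 37.9% and 34.7% of protein-coding genes. In K80R against empty vector 8 lay above and 5 below, against 36.5% and 35.7%. In K80R against wild type HIST1H2AG and HIST1H2AI lay above and HIST1H1C, HIST3H2A, HIST1H2BD, HIST1H3H and HIST1H4H below, against 26% and 33.2%.

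**Figure D3:**
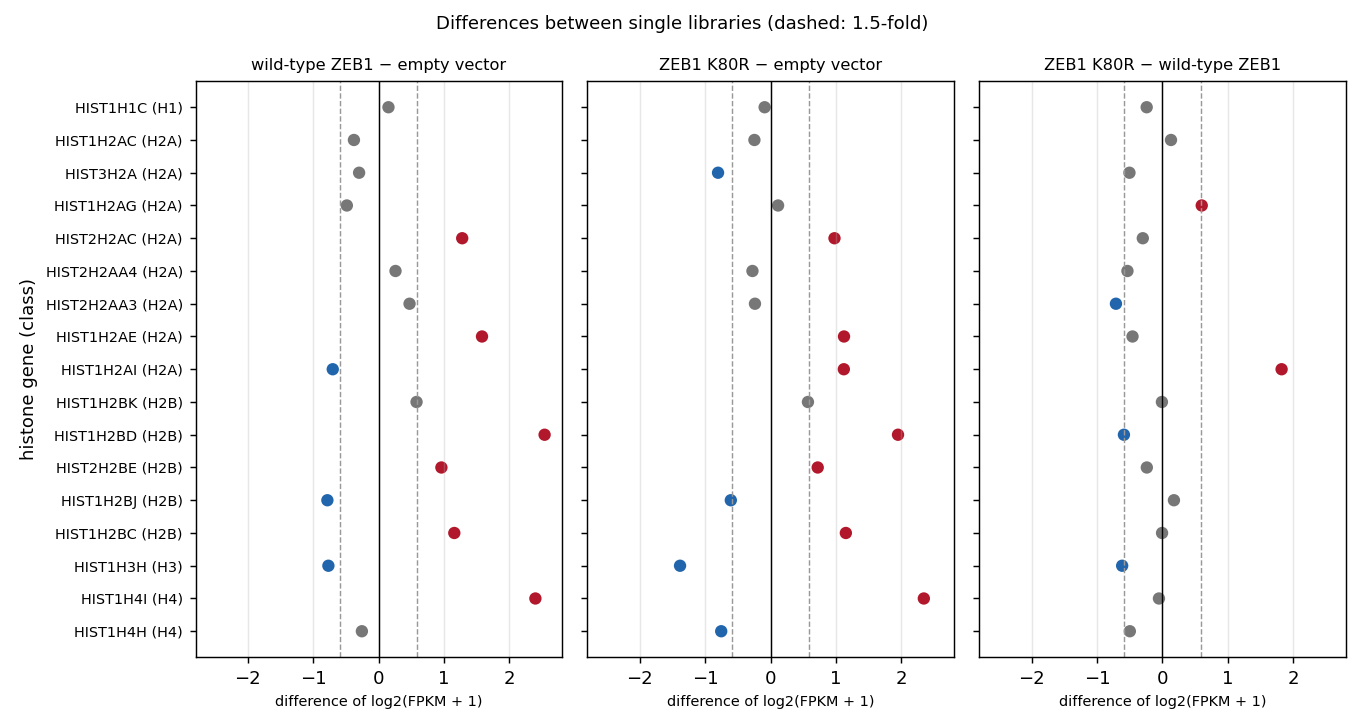
Differences of log2(FPKM + 1) between the libraries for each of the 17 measured members, in the 3 comparisons, with dashed lines at 1.5-fold. HIST1H2BD (2.54 and 1.95) and HIST1H4I (2.40 and 2.35) are farthest above 0 against empty vector, and HIST1H3H (−0.77 and −1.38) is below it in both.

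The scaling of the libraries bore on the directions. The library sizes implied by the deposited FPKM differed from the read totals. Per read total, a scale added after seeing the data, ratios to empty vector are multiplied by 0.895 in wild type and 0.918 in K80R, and the total histone ratios were 1.17 and 1.11, with H1 at 1.00 in wild type. Without weighting by length, histone reads were 219.8, 240.3 and 226.9 per 1e+06 reads. The deposited FPKM summed to 223875, 307544 and 303683, and setting these sums equal multiplied ratios to empty vector by 0.728 for wild type and 0.737 for K80R. On that scale 4 of 15 measured members were higher and 5 lower in each comparison with empty vector, against 5.25% higher and 32.1% lower of 11928 genes in wild type and 4.64% and 32.1% in K80R. There HIST1H2BK stood at 1.09 and 1.1. HIST1H1C then stood below empty vector in both, at 0.810 and 0.692, and the total histone ratio turned from 1.31 (1.24 to 1.38) to 0.951 in wild type and from 1.2 (1.14 to 1.27) to 0.888 in K80R. HIST1H4I at 4.90 and 4.78 and HIST1H2BD at 6.25 and 4.07 stayed above empty vector, and HIST1H3H at 0.389 and 0.224 stayed below. In K80R against wild type that scale left 0 higher and 1 lower, against 3.44% and 4.12%. Equal sums without mitochondrially encoded genes gave 2 higher and 1 lower there, against 6.95% and 2.98% of 12621 genes.

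Of the 54 members below the filter, 25 had no read in any library, 19 had reads in some libraries only and 10 in all 3. Of the 71 members, 25 had reads in all 3 libraries and 25 in none. Reads in the empty vector library alone were found for HIST1H4B (17 reads), HIST1H2AH (9) and HIST1H3E (8), or 4.23% of members against 0.777% of protein-coding genes. For HIST1H4B the upper limits of the ratios to empty vector were 0.279 in wild type and 0.289 in K80R. In 6 members, HIST1H2AE, HIST1H1E, HIST1H3C, HIST1H2BF, HIST1H3A and HIST1H2BB, reads appeared in both ZEB1 libraries and not in the empty vector library, or 8.45% against 5.33%. Among them HIST1H2BF had 12 and 3 reads, and the rest after HIST1H2AE had at most 7. Reads in wild type alone came to 2 for HIST1H2AB and 1 each for HIST1H4C, HIST1H4K and HIST1H2BO. In K80R alone, HIST2H3A had 2 reads, and HIST3H3, HIST1H2BL, HIST1H2BM, HIST2H2AB and HIST2H3C had 1 each. Shares of protein-coding genes with reads in wild type alone or in K80R alone were not computed. Over all genes, too, the empty vector library held fewer genes of 1 to 3 reads, 1009 against 5496 and 5949.

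Among members below the filter but with more reads, the orders were mixed. HIST3H2BB had 36, 14 and 24 reads, HIST4H4, the single HIST4 gene, on chromosome 12, had 24, 3 and 6, and HIST1H2BG had 14, 4 and 7. These were highest with the empty vector, as was HIST1H4E with 13, 6 and 5 reads. HIST1H2BE had most reads in wild type (11, 14 and 7) and HIST1H2BN in K80R (15, 22 and 26). The counting intervals of HIST1H2BG, HIST1H4E and HIST1H2BE held 1 in all 3 comparisons, so their orders lay within counting error. Those of HIST4H4 against empty vector lay below 1, at 0.0277 to 0.474 in wild type and 0.0997 to 0.749 in K80R. The near-identical pair HIST2H4A (11, 1 and 12) and HIST2H4B (9, 5 and 5) cannot be told apart. All were far below the leading genes of their classes.

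The members were also grouped by their annotated 3′ end, where reads and levels gave different orders of the groups. For 35 members the transcript ends at the stop codon, and only HIST1H2BK and HIST1H1C of these had 10 or more reads in all 3 libraries. In 23 members more than 100 bases follow the stem-loop, and 10 of those had at least 10 reads in each library. Examples are HIST1H2AC with 1128 bases after the stem-loop, HIST2H2BE with 1729 and HIST1H4H with 1655, transcripts that run past the site where histone mRNA is usually cut. In 9 members the stem-loop lies within 100 bases of the end of the transcript that holds it. Of these only HIST1H2BD, with 39 bases after it, reached 10 reads in each library. HIST1H2BD has 2 annotated transcripts, with up to 384 bases after the stop codon. Its reads need not come from the transcript that ends near the stem-loop. By level the order of these groups differed, with 5 of the 9 at a mean of at least 1 FPKM and a median of 1.05, against 8 of the 23 and a median of 0.305. A longer model collects more reads at the same FPKM, and where the reads fell along the transcript was not tested.

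**Figure D4:**
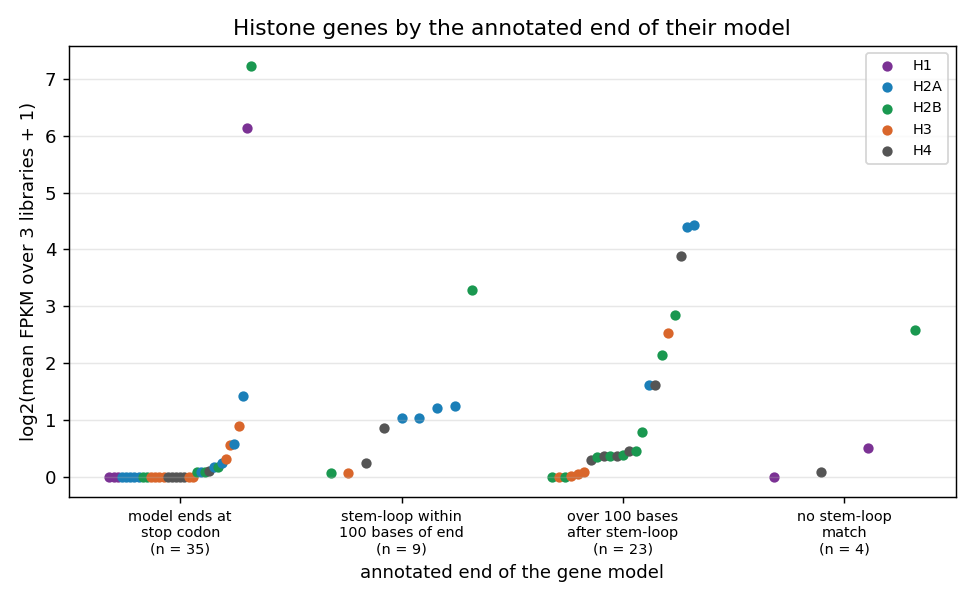
Log2 of the mean FPKM over the 3 libraries plus 1, with a point for each of the 71 histone genes coloured by class, grouped by how the GENCODE 29 transcript ends relative to the stem-loop. HIST1H2BK and HIST1H1C stand far above the other 33 members of the group ending at the stop codon.

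Paired H2A and H2B genes that start near one another on opposite strands stood in the same order in some pairs and not in others. There were 11 such pairs within 1000 bases, and reads were found for both partners in 8. HIST2H2BE (128, 245 and 196 reads) and HIST2H2AC (3, 14 and 10 reads) were both lowest with the empty vector. HIST1H2BC (19, 51 and 49 reads) and its neighbour HIST1H2AC (633, 418 and 444 reads) stood in opposite order, with 219 bases between them. HIST1H2BK and HIST1H2AH (9, 0 and 0 reads) also stood in opposite order, while HIST3H2A and HIST3H2BB (36, 14 and 24 reads) were both highest with the empty vector.

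Genes that make and process histone mRNA were described from lists chosen with earlier results of these data known. On the deposited scale 14.2% of all genes were higher and 11.1% lower in wild type against empty vector, and 12.6% and 13% in K80R. Of 31 measured genes for histone gene transcription and 3′ processing, 3 were at least 1.5-fold higher and 2 lower in wild type, and 4 and 5 in K80R, against empty vector, with medians of −0.05 and −0.04 on the log2(FPKM + 1) scale, while at equal sums of FPKM 0 were higher and 13 and 11 lower, a scale on which 32.1% of all genes were lower in each. SLBP, the stem-loop binding protein, was measured at 41.4, 21.4 and 23.0 FPKM, at ratios of 0.516 (0.468 to 0.569) and 0.556 (0.505 to 0.612). NPAT, the coactivator of histone transcription, was measured at 1.74, 2.86 and 3.53 FPKM, at 1.64 (1.37 to 1.97) and 2.03 (1.71 to 2.42). Of 11 measured replication-independent histone genes, 0 were higher and 2 lower in wild type and 0 and 3 in K80R against empty vector, and at equal sums 4 and 6 were lower. H2AFZ, which encodes H2A.Z, was measured at 218, 135 and 127 FPKM, and H3F3B, which encodes H3.3, at 117, 83.7 and 71.7. Of 24 measured histone chaperones, which escort histones to and from DNA, 2 were higher and 5 lower in wild type, and 0 and 4 in K80R, and at equal sums 0 were higher and 14 and 9 lower.

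Since histone mRNA follows S phase, 31 measured DNA replication and S phase genes were set beside the members. In wild type against empty vector 1 was higher and 10 were lower, with a median of −0.49, against 14.2% and 11.1% of all genes. K80R gave 1 and 4, with a median of −0.16, against 12.6% and 13% of all genes. K80R against wild type gave 5 higher and 0 lower, with a median of 0.33, against 4.42% and 5.18%. MCM3, a subunit of the replicative helicase, was measured at 39.4, 18.5 and 26.5 FPKM, and FEN1, the flap endonuclease, at 82.6, 39.5 and 46.2. Of 18 mitosis genes, 1 was higher and 1 lower in wild type, and 2 and 1 in K80R, and at equal sums 0 and 8, and 1 and 6. MCM3 and FEN1 had their lowest value in wild type, as did 4 of the 17 measured histone genes, HIST1H2AC, HIST1H2BJ, HIST1H2AG and HIST1H2AI. Another 7 were lowest in the empty vector library and 6 in K80R. The share of all genes lowest in each library was not computed, so this split has no background to be read against. Some placements lay within counting error, as for HIST1H2AC between K80R and wild type (0.960 to 1.26), HIST2H2AA3 and HIST2H2AA4. At equal sums of FPKM the replication counts were 0 higher and 21 lower in wild type and 0 and 15 in K80R, where 32.1% of all genes were lower in each. Their part in the histone values was not tested.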

How the data were processed

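The authors deposited FPKM for 58735 genes in 3 libraries. The build hg38 and the tools featureCounts 1.5.0-p3, DESeq2 1.20.0 and CASAVA are listed, with no roles, per the submitters' processing notes. Aligner, strand setting and annotation: not given in the sources used here. All identifiers occurred in GENCODE 29, which supplied the transcripts and stem-loops. Promoters came from RefSeq (GRCh38.p14), matched through current symbols.

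FPKM times gene length was a whole multiple of 1 step per library within 0.05 reads for 100% of genes above 0, which gave the reads. FPKM depends on model length and library composition. Members whose mean FPKM reached 1 were compared on log2(FPKM + 1), a scale that understates differences of low genes, at a fold of 1.5. Ratios are of FPKM without the added 1. Intervals of single genes are exact conditional 95% counting intervals, and intervals of sums are approximate weighted Poisson ones, where exact ones had been planned. Uniqueness was the share of a gene's 50-base windows found in no other gene. Python 3.11.15, numpy 2.4.6, pandas 2.3.3 and scipy 1.17.1 were used, and the scripts were tested on simulated data.

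The members and lists were chosen with earlier results of these data known. Named genes were members with a mean of at least 1, the 2 highest of each class, members with reads in 1 library, and up to 4 genes per list with the largest differences. Other genes named (NPAT, HJURP, and members below the filter with reads in several libraries) were chosen after their values were seen. Alternatives changed the pseudocount, filter, fold, scaling (read totals added after seeing the data), and members included.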

Additional observations from a re-analysis of the deposited data

How the results depend on the processing

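With 1 library per group there were no replicates to leave out. No paired analysis was possible because each group had 1 library. Counting depth limited members with few reads, and 25 members had none. At a common sum of FPKM the ratio of the summed family turned below 1 against empty vector, at 0.951 in wild type and 0.888 in K80R, as did the H1 sum in wild type, at 0.817. At a common sum without mitochondrially encoded genes the ratio of K80R to wild type turned to 1.03. Without its highest gene the H3 sum was 1.23 in wild type and 0.807 in K80R, H4 0.458 and 0.319, H2B 2.11 and 1.73, H2A 0.935 and 0.744, and the family 1.17 in wild type, 1.01 in K80R and 0.858 for K80R against wild type. Without members under 50% unique, a setting chosen after seeing the data, the family gave 1.17, 0.999 and 0.850, and 1 member was higher in K80R against wild type. Scaled to read totals, also added after seeing the data, the family gave 1.17 and 1.11 against empty vector, and 1 member was higher and 1 lower in K80R against wild type.

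Counts of members past the fold moved as follows. The share of all genes was not computed at the other filters, at 2-fold, at a pseudocount of 0.1 or per read total. Counts at those settings therefore have no background to be read against. The number of members measured also differs between filters, being all 71 with none and fewer than 17 with a filter of 5. In wild type against empty vector, 10 were higher and 5 lower with a filter of 0.1 FPKM or none, 3 and 0 with a filter of 5, 0 lower at 2-fold, and 5 lower at a common sum. In K80R against empty vector, 7 were lower with a filter of 0.1 or none, 3 higher and 1 lower with a filter of 5, 1 lower at 2-fold, and 4 higher at a common sum. In K80R against wild type, a filter of 5 gave 0 higher and 1 lower, 2-fold gave 1 and 0, a common sum 0 and 1, a common sum without mitochondrially encoded genes 1 lower, and a pseudocount of 0.1 gave 6 lower.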

Other observations

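The table also held 19 histone pseudogenes with a symbol of this family, of which 6 had reads. HIST2H2BC was measured at 0.987, 1.13 and 0.991 FPKM, from 101, 100 and 85 reads, and HIST2H2BD at 1.29, 0.722 and 0.748 FPKM, from 74, 36 and 36 reads, in the library order used above. Each therefore held more reads than most protein-coding members. HIST2H2BB had 3, 0 and 0 reads, and HIST1H4PS1, HIST1H2BPS3 and HIST1H3PS1 had at most 2.

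Of the 6 testis germ cell markers, 4 had no read and the highest value was 0.0757 FPKM. Among histone chaperones, SET was measured at 172, 101 and 94.6 FPKM and ANP32E, which removes H2A.Z, at 44.2, 22.3 and 21.6. NAP1L1 was measured at 54.9, 35.3 and 29.1 FPKM and MCM2 at 20.2, 11.2 and 16.8. HJURP, the chaperone of the centromeric H3 CENP-A, was measured at 23.6, 39.0 and 32.8 on the deposited scale, a smaller difference than in these genes. At equal sums of FPKM 0 of 24 measured chaperones were at least 1.5-fold higher against empty vector in either ZEB1 library. Among mitosis genes, MKI67 was measured at 14.8, 20.9 and 37.3 FPKM and BIRC5 at 46.5, 24.8 and 23.3.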
